A study of Mus musculus with 15 samples.

Results

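This report describes 45 genes of cell proliferation and mitosis in mouse skeletal muscle. The genes were listed by name, with earlier results of these data known, and were kept where the mean over the 15 samples was 10 normalized counts or more. All 45 of the 45 listed genes met that minimum, out of 55536 genes in the deposited tables, of which 15389 met it. A normalized count is the number of reads of a gene after the authors scaled the samples to each other. The 45 genes were placed in 7 groups by role, which order the results.

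Muscle RNA came from male mice aged 2 months in 3 groups of 5. The controls are labelled wild type. The knockout mice are labelled as lacking PdgfrB, which encodes a PDGF receptor, and the D489V mice as carrying the PdgfrB D489V allele. The series' design text places both alleles in the myogenin lineage, so a driver active in differentiating muscle cells, and calls the D489V receptor constitutively active. The labels do not say whether the controls carry a Cre transgene, nor which muscle, strain, litter or batch a sample came from. They give no injury, although the title of the series speaks of regeneration. No label states that samples within a group came from separate animals, so p-values measure the spread between these samples, which may in part be technical.

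Dividing cells switch on these genes in a fixed order. Replication genes are expressed as DNA synthesis begins, while cyclin B, the mitotic kinases, the kinesin motors and the cytokinesis genes follow toward mitosis. Muscle fibres are multinucleate cells that have left the cell cycle for good, so in adult muscle such RNA is thought to come mostly from the dividing cells between the fibres, among them satellite cells, endothelial cells, fibroblasts and blood-borne cells. In a bulk sample, fewer dividing cells and less RNA per dividing cell cannot be told apart.

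The promoters of such genes often carry short motifs that are read together. CCAAT is the box bound by NF-Y, TTTGAA is the core of the cell cycle homology region bound by the DREAM and MuvB complexes, and TTCCCGC and TTGGCGC are forms of the E2F site. These letters were searched on both strands in the 250 bases before each RefSeq transcription start on GRCm38.p6. TTGGCGC can share letters with a CCAAT box on the other strand. The 150 bases before the start are printed for 6 genes to which the comparisons below return, 5' to 3' on the gene's strand and with every match in capitals. They lie at chr7:135716380-135716529 (Mki67, minus strand), chr8:22185820-22185969 (Ckap2, minus), chr11:99024190-99024339 (Top2a, minus), chr2:118598061-118598210 (Bub1b, plus), chr6:88898781-88898930 (Mcm2, minus) and chr7:102441545-102441694 (Rrm1, plus), each upstream of the gene and outside its annotated exons.
Mki67: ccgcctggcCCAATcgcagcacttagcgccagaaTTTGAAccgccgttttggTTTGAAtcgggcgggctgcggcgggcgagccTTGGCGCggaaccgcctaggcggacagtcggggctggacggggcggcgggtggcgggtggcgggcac
Ckap2: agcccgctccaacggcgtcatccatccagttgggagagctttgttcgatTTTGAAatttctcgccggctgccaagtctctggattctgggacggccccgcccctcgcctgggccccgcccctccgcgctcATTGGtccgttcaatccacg
Top2a: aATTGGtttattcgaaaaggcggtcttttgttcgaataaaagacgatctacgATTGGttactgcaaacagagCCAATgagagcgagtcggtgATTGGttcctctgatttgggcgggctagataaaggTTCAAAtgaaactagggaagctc
Bub1b: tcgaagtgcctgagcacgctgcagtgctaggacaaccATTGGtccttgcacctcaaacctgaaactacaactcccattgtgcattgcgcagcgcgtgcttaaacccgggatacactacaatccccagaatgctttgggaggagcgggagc
Mcm2: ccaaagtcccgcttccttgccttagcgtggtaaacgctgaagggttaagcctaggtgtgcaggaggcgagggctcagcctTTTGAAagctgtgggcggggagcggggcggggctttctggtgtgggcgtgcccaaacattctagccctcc
Rrm1: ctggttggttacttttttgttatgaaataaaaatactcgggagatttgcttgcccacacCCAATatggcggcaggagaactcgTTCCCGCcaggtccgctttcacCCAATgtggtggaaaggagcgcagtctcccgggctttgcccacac

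Top2a held 4 CCAAT boxes within this stretch, 58, 78, 98 and 149 bases before the start, and 1 TTTGAA match 23 bases before it. Mki67 held all 3 kinds of motif, with TTTGAA at 98 and 116 bases, CCAAT at 141 and TTGGCGC at 67. The RefSeq table had a promoter for 39 of the 45 genes, and not for Aurkb, Ccna2, Esco2, Kif20a, Smc4 and Tpx2. A CCAAT box was found in 31 of the 39 (79.5%), against 37.5% of all 27025 genes in that table and 39.7% of the 11082 genes that also entered the tests below. TTTGAA was found in 15 of the 39 (38.5%), against 18.3% of all genes and 12.7% of those tested. An E2F form was found in 7 of the 39 (17.9%), against 6.45% and 11.4%. By role, TTTGAA was present in all 3 anaphase genes (Cdc20, Espl1 and Ube2c) and 4 of the 5 chromosome structure genes, but in 1 of the 8 replication genes and 0 of the 7 checkpoint and kinetochore genes. A match is a description of the letters and shows neither binding nor its absence.

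Samples summed to 29815559 to 36489777 normalized counts and had 20799 to 23783 genes above 0. The muscle fibre markers, among them Acta1, Ckm and Myh4, were abundant in all 15 samples. PdgfrB RNA was 1673 to 1848 in controls, 958 to 1628 in knockout and 820 to 1062 in D489V muscle, so that RNA of the targeted gene remained in every knockout sample. Some libraries stood apart from their groups. Knockout 3, labelled male, held 3165 normalized counts of Xist, the RNA of the inactive X chromosome in females, against at most 101 elsewhere. Summed B cell markers were 5679 in control 5 and 1417 to 5504 in knockout 3 to 5, against at most 284 in the other 11 samples. Some results are therefore also given without some of these libraries. Knockout against control is not given here without all of them together.

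The level of these genes in control muscle was low and spread over a wide range. Divided by exon length, so that genes can be compared, the control mean ran from 2.32 normalized counts per kb for Esco2, the cohesin acetyltransferase, to 841 for Ube2c, the ubiquitin-conjugating enzyme of the anaphase-promoting complex. Smc4 at 129, Rrm1 at 80.4, Aurka at 65.3 and Mcm3 at 65.1 per kb came next. Mki67 stood at 27.3, Ccna2 at 22.9, Top2a at 20.3 and Cdk1 at 11.1 per kb. The Ube2c value needs care, because 592 bases of its exons lie opposite exons of Tnnc2, the fast muscle troponin C, whose mean was 366072 normalized counts against 2184 for Ube2c. The library kit keeps the strand, but the strand setting of the counting is not given in the sources used here, and reads of Tnnc2 in Ube2c were not tested. Exons of 11 further genes of the list overlap another gene, such as Ccna2 with Exosc9 over 510 bases on the opposite strand.

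Across the 3 groups the genes mostly followed 1 order. The group means ran D489V below knockout below control in 37 of the 45 genes. In 4 genes, Tyms, Nusap1, Ncaph and Espl1, the knockout mean was the lowest and the control mean the highest. D489V was lowest and knockout highest in Rrm1 and Melk, control was lowest and knockout highest in Aurka, and knockout was lowest and D489V highest in Ube2c. Each gene was divided by its own mean over the 15 samples, and the median of that ratio over the 45 genes was taken in each sample as a description, with no test. In controls 1 to 5 the median ratio was 1.12, 1.05, 1.05, 1.43 and 1.78. Among knockout samples 1 to 5 it was 0.486, 1.27, 0.964, 1.18 and 1.13, so knockout 1 lay far below its group. D489V samples 1 to 5 gave 0.669, 0.470, 0.718, 0.607 and 0.608, all below every control and, apart from knockout 1, below every knockout sample.

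**Figure D1:**
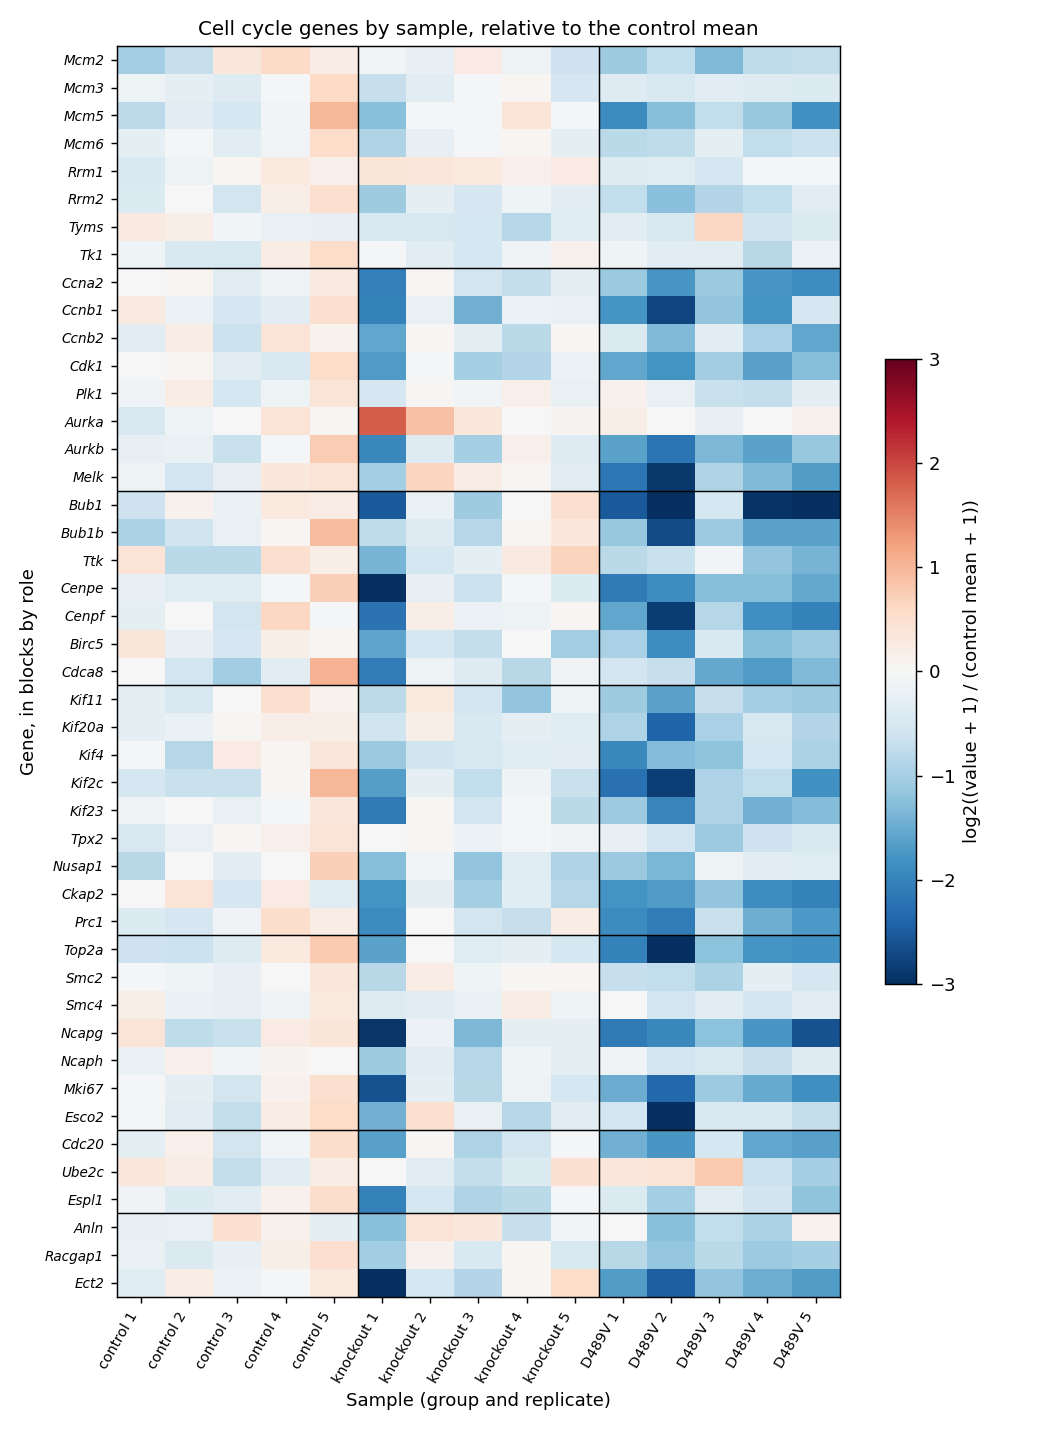
Each row is 1 of the 45 genes, in blocks by role, and each column 1 of the 15 samples, with the colour giving log2 of (value + 1) over (control mean + 1), clipped at 3 in either direction. The 5 D489V columns are blue for most genes, knockout 1 is blue for most genes, and control 5 is red for most genes.

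Single samples accounted for many of the extremes. Of the 15 samples, D489V 2 had the lowest value in 20 genes and knockout 1 in 14, while control 5 had the highest in 26. Within the groups, knockout 1 was lowest of the 5 knockout samples in 36 genes, control 5 was highest of the controls in 28, and D489V 3 was highest of the D489V samples in 28. The median coefficient of variation over the genes was 28.1% in controls, 40.3% in knockout and 31.99% in D489V.

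D489V against control muscle was the comparison in which the proliferation genes stood furthest from the rest of the transcriptome. Of the 45 genes, 43 had a lower mean in D489V, against 51.9% of all genes with a mean of 10 or more. The groups did not overlap, with every D489V sample below every control, in 19 of the 45 genes (42.2%), against 1.05% of all such genes, and 0 genes of the list had every D489V sample above every control, against 1.1%. These 19 were Ccna2, Cdk1, Aurkb, Melk, Bub1b, Cenpe, Cenpf, Kif11, Kif20a, Kif2c, Kif23, Ckap2, Prc1, Top2a, Smc2, Ncapg, Mki67, Racgap1 and Ect2.

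For the test, limma was run on log2(value + 1) over 15339 genes, those that reached 10 in 5 or more of the 10 samples, a scale that understates the differences of low genes. At a Benjamini-Hochberg adjusted p under 0.05 over all of these, 3 of the 44 genes tested (6.82%) were lower, Mki67, Ccna2 and Ckap2, against 0.0326% of all genes tested, and 0 were higher, against 0.0261%. Ttk did not meet the filter. At an unadjusted p under 0.05, 34 genes were lower, against 4.06% of all genes tested, and 0 were higher, against 5.37%. Of the genes tested, 11 reached 10 in all 5 controls but not in all 5 D489V samples, so their entry into the test depended in part on the controls. With no such filter all 45 genes were tested, and 43 were lower, 34 of them at an unadjusted p under 0.05 (2.77% of all genes in that fit were), with a median log2 difference of -1.10 against 0.02 over all genes.

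Mki67 encodes the Ki-67 protein, which coats mitotic chromosomes and is the standard mark of cycling cells (ENSMUSG00000031004, a protein-coding gene on the minus strand of chromosome 7, 135689784 to 135716361). Normalized counts of Mki67 were 268, 229, 188, 300 and 386 in controls 1 to 5 and 97, 53, 128, 96 and 76 in D489V samples 1 to 5. Every D489V sample lay below the lowest control. The means were 274 ± 75.3 and 90.0 ± 27.8 (SD, n = 5), a log2 difference of -1.61 (standard error, SE, 0.24, limma adjusted p 0.0485). The knockout samples held 44, 229, 154, 246 and 189, and 3 controls lay above all of them.

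Ccna2 encodes cyclin A, which activates the cyclin-dependent kinases in S phase and early mitosis (ENSMUSG00000027715, a protein-coding gene on the minus strand of chromosome 3, 36564865 to 36572150). Controls held 95, 98, 75, 87 and 113 normalized counts and D489V samples 43, 27, 43, 27 and 25. The lowest control stood well above the highest D489V sample. The means of 93.6 ± 14 and 33.0 ± 9.17 (SD, n = 5) gave a log2 difference of -1.50 (SE 0.21, limma adjusted p 0.0408). Knockout samples held 22, 96, 64, 57 and 77, of which the first was below all D489V samples and the second was within the control range.

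Ckap2 encodes a microtubule-binding protein of the mitotic spindle (ENSMUSG00000037725, a protein-coding gene on the minus strand of chromosome 8, 22168160 to 22185819). Its values were 65, 86, 45, 76 and 50 in controls and 18, 19, 28, 17 and 15 in D489V samples, with no overlap. The means were 64.4 ± 17.2 and 19.4 ± 5.03 (SD, n = 5), and the log2 difference was -1.67 (SE 0.24, limma adjusted p 0.0408). In knockout samples the values were 18, 53, 31, 50 and 35. Both the called genes with a promoter in the RefSeq table, Mki67 and Ckap2, hold TTTGAA and CCAAT in the sequences printed above.

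These 3 calls depended on the samples in the fit, although their sign was the same in every alternative that could be fitted. With 1 of the 10 samples left out in turn, all 3 passed in 2 of the 10 fits (without control 3 and without D489V 3), Ccna2 alone passed in 1 (without D489V 1), and none passed in the other 7, without controls 1, 2, 4 or 5 or D489V 2, 4 or 5, where limma adjusted p ran from 0.0608 to 0.136. In all 10 fits the log2 differences lay between -1.75 and -1.44 for Mki67, -1.61 and -1.42 for Ccna2, and -1.81 and -1.56 for Ckap2. Without control 5, the control richest in lymphocyte RNA, groups did not overlap in 19 genes, all lower in D489V, against 1.57% of all genes in that fit. Without D489V 3, which held the highest D489V value of most genes, 10 genes were lower at the adjusted threshold, against 0.0922% of all genes.

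**Figure D2:**
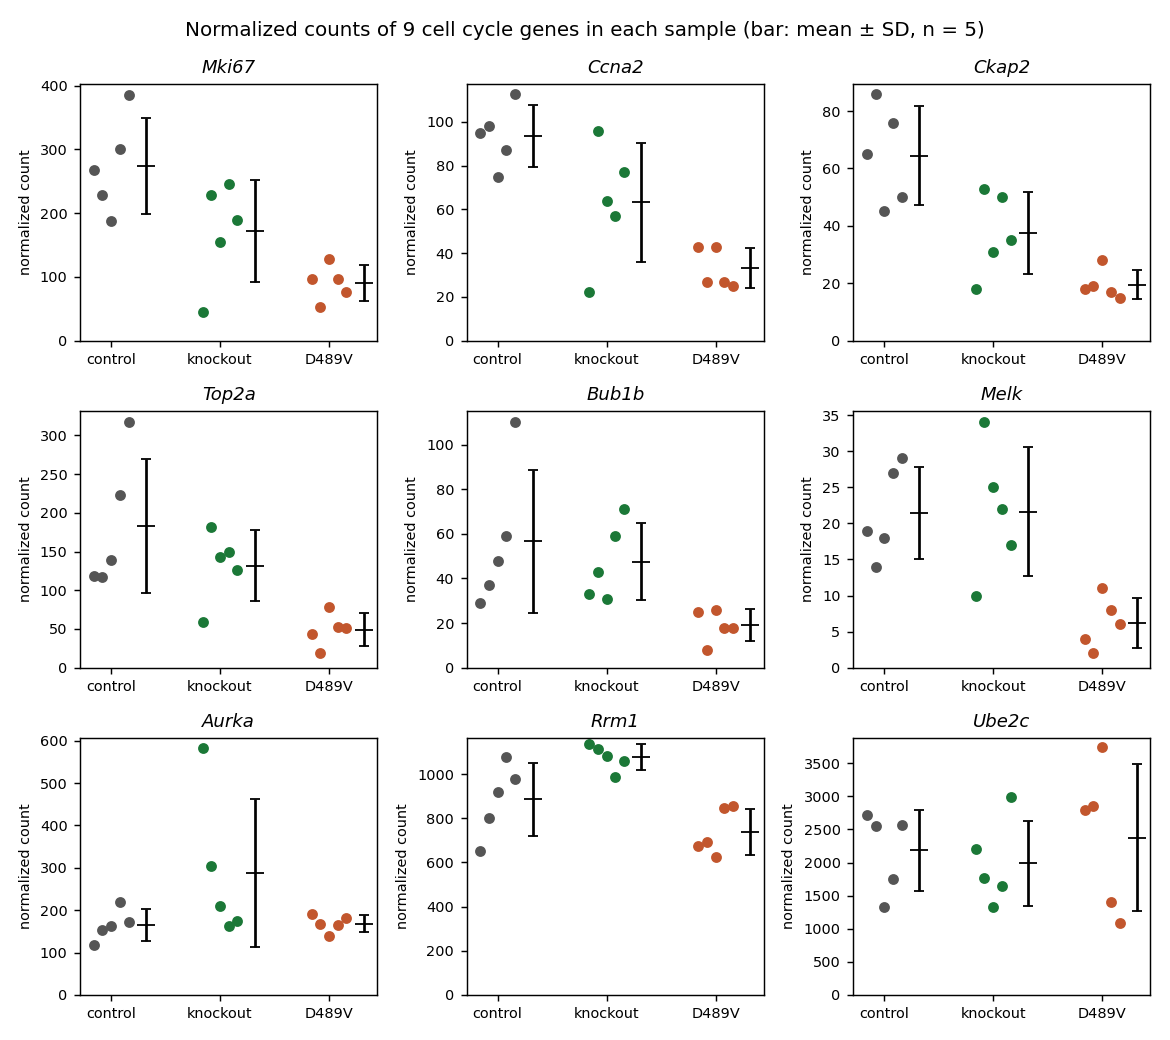
Points give the normalized count of 9 genes in each of the 15 samples, by group, on linear axes that start at 0, with the mean ± SD (n = 5) beside each group. D489V samples lie below all controls in Mki67, Ccna2, Ckap2, Top2a, Bub1b and Melk, while the groups overlap in Aurka and Ube2c and the knockout samples lie above all D489V samples in Rrm1.

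Of the cyclins and mitotic kinases, 7 of 8 were lower in D489V, with a median log2 difference of -1.46 over the 8. Cdk1, the kinase that drives entry into mitosis, had 39 to 80 normalized counts in controls and 15 to 26 in D489V samples (log2 difference -1.41, SE 0.24, limma adjusted p 0.0572). Aurkb, the kinase of the chromosomal passenger complex, had 28 to 77 and 9 to 20, and Melk, a mitotic kinase, had 14 to 29 and 2 to 11. The B cyclins, partners of Cdk1, overlapped between groups: Ccnb1 ran from 28 to 56 in controls and from 5 to 28 in D489V, and Ccnb2 from 29 to 61 and from 15 to 37. Plk1, a kinase of spindle assembly and mitotic exit, differed little, with 42 to 80 in controls and 37 to 67 in D489V (log2 difference -0.32, SE 0.23).

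Aurka, the centrosomal kinase of spindle assembly and the highest of these 8 by mean normalized count, was an exception. It held 118, 152, 163, 220 and 173 normalized counts in controls and 190, 167, 139, 165 and 181 in D489V samples, which overlapped throughout. The log2 difference was 0.05 with a standard error of 0.16. Knockout samples held 583, 305, 209, 163 and 175, so that knockout 1, the lowest of the knockout samples for 36 of the 45 genes, was the highest of all 15 samples for Aurka.

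Genes of the spindle checkpoint, the kinetochore and the passenger complex were lower in all 6 that were tested, with a median log2 difference of -1.51. Cenpf, a kinetochore protein and the highest of the group by mean normalized count, which is not corrected for length, had 53, 63, 43, 99 and 61 normalized counts in controls and 21, 8, 35, 17 and 15 in D489V samples, with no overlap (log2 difference -1.77, SE 0.35). Bub1b, which encodes the checkpoint protein BubR1, had 29, 37, 48, 59 and 110 in controls and 25, 8, 26, 18 and 18 in D489V samples, again with no overlap. Cenpe, the kinetochore motor, ran from 33 to 70 in controls and from 9 to 17 in D489V (log2 difference -1.55, SE 0.28, limma adjusted p 0.0638). Bub1, the kinase that recruits the checkpoint to kinetochores, had 14 to 27 in controls and 0 to 15 in D489V, where 4 of the 5 samples held 3 or fewer. Birc5, which encodes survivin, and Cdca8, which encodes borealin, had means of 49.8 and 54.2 in controls and 23.4 and 24.8 in D489V, with overlapping samples. Ttk, the Mps1 checkpoint kinase, was too low for the test, at 8 to 21 in controls and 5 to 14 in D489V.

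Spindle motors and microtubule binders were lower in 9 of 9, with a median log2 difference of -1.13, and their groups did not overlap in 6. Kif23, the motor of the central spindle, ran from 66 to 96 normalized counts in controls and from 19 to 40 in D489V (log2 difference -1.33, SE 0.21, limma adjusted p 0.0506). Prc1, which bundles midzone microtubules, ran from 59 to 123 and from 19 to 53, and Kif11, the motor that separates spindle poles, from 36 to 71 and from 16 to 31. Tpx2, an activator of Aurora A and the highest of the 9 by mean normalized count, had 114, 136, 162, 177 and 207 in controls and 134, 106, 74, 103 and 115 in D489V samples. Those ranges overlapped, and the log2 difference was -0.57 (SE 0.19). Kif20a, Kif2c and Ckap2 did not overlap, while Kif4 and Nusap1 did.

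For chromosome structure and cohesion, 7 of 7 genes were lower, with a median log2 difference of -1.18. Top2a, which encodes the topoisomerase that untangles replicated chromosomes, had 119, 117, 139, 223 and 317 normalized counts in controls and 44, 19, 78, 53 and 51 in D489V samples. All D489V samples were below all controls (means 183 ± 86.5 and 49.0 ± 21.1, SD, n = 5), with a log2 difference of -1.89 and a standard error of 0.37. Among the condensin genes, Smc2 (91 to 137 against 55 to 89) and Ncapg (17 to 39 against 4 to 12) did not overlap, whereas Ncaph (89 to 113 against 63 to 95) did. Smc4, the highest of the group by mean normalized count, had 765, 584, 566, 623 and 829 in controls and 682, 450, 536, 457 and 540 in D489V samples, which overlapped (log2 difference -0.34, SE 0.14). Esco2 ran from 9 to 23 and from 0 to 11.

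Cytokinesis genes were lower in 3 of 3. Racgap1, a GTPase-activating protein of the central spindle, had 112, 95, 110, 146 and 185 normalized counts in controls and 72, 57, 74, 60 and 65 in D489V samples, with no overlap (log2 difference -0.94, SE 0.19). Ect2, the exchange factor that activates RhoA at the cleavage furrow, ran from 29 to 46 and from 6 to 16 (log2 difference -1.68, SE 0.28, limma adjusted p 0.0527). Anln, which encodes anillin, ran from 58 to 98 and from 29 to 76 and overlapped.

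Of the 3 anaphase genes, Cdc20 and Espl1 were lower and Ube2c was not. Cdc20, the activator of the anaphase-promoting complex, ran from 49 to 106 normalized counts in controls and from 21 to 50 in D489V, and Espl1, which encodes separase, from 36 to 69 and from 20 to 38. Ube2c held 2723, 2554, 1335, 1749 and 2572 in controls and 2790, 2857, 3750, 1402 and 1091 in D489V samples, with a log2 difference of 0.03 (SE 0.33). Tnnc2, whose exons lie opposite those of Ube2c, held 410891, 375417, 305768, 397431 and 331325 in the same controls. In D489V samples 1 to 5 it held 464637, 442119, 445143, 308725 and 329064. Whether Tnnc2 reads entered the Ube2c values was not tested.

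Replication and nucleotide genes were lower in 8 of 8 but by less, with a median log2 difference of -0.48 and no gene whose groups did not overlap. Mcm5, a subunit of the replicative helicase, had 73, 100, 87, 119 and 251 normalized counts in controls and 33, 51, 75, 57 and 35 in D489V samples (log2 difference -1.23, SE 0.33), and the highest D489V sample stood just above the lowest control. Mcm2, of the same helicase, had 133, 166, 334, 401 and 315 in controls and 129, 161, 107, 158 and 165 in D489V samples. Controls 1 and 2 thus lay within or just above the D489V range of Mcm2. Rrm1, the large subunit of ribonucleotide reductase and the highest of the group by mean normalized count, had 650, 803, 919, 1077 and 980 in controls and 674, 691, 624, 846 and 856 in D489V samples, a log2 difference of -0.25 (SE 0.14). Rrm2, Mcm3, Mcm6, Tk1 and Tyms had log2 differences of -0.74, -0.35, -0.61, -0.30 and -0.23. No test of a difference between the role groups was made.

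**Figure D3:**
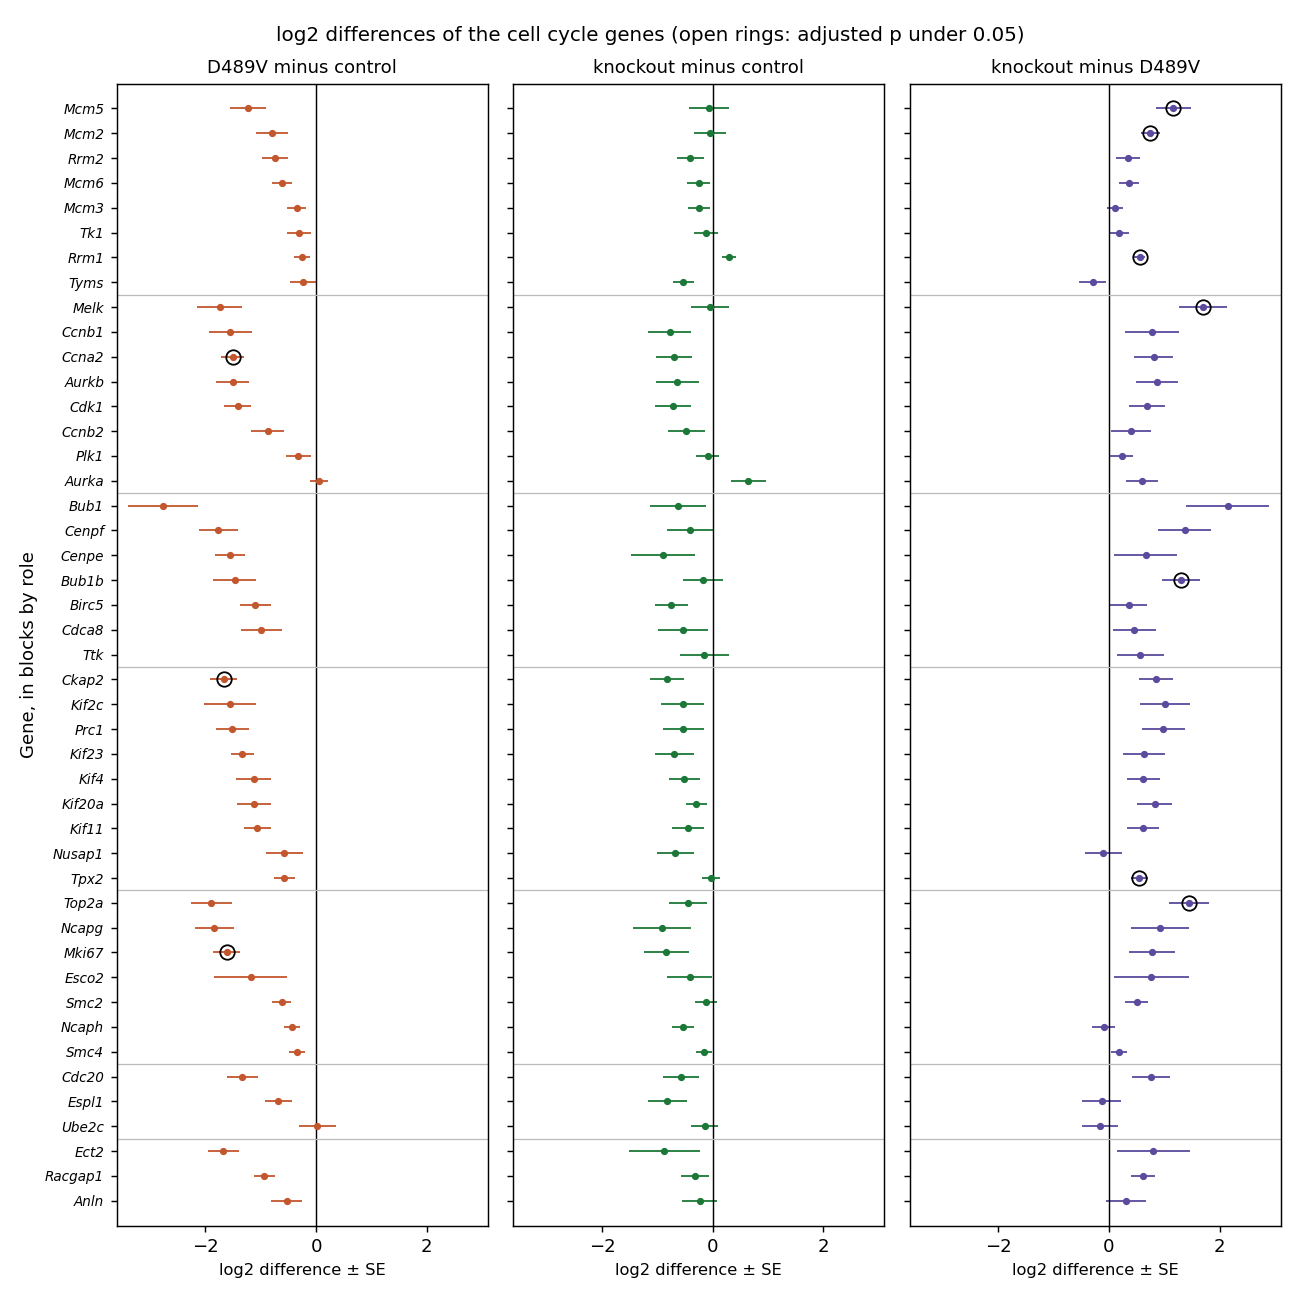
Points give the log2 difference of each gene with its standard error in the 3 comparisons, in blocks by role, with open rings around genes at an adjusted p under 0.05. Nearly all points lie left of 0 for D489V minus control, with rings on Mki67, Ccna2 and Ckap2, no ring appears for knockout minus control, and 7 rings lie right of 0 for knockout minus D489V.

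Knockout against control gave smaller differences, and none passed. Of the 45 genes, 42 had a lower mean in knockout, against 48.5% of all genes with a mean of 10 or more. In the test over 15234 genes, 0 of the 45 were lower at an adjusted p under 0.05 by limma, against 0.00656% of all genes, and 0 were higher. At an unadjusted p under 0.05, 6 were lower (Tyms, Cdk1, Birc5, Ckap2, Ncaph and Espl1), which is 13.3% against 7.42% of all genes, and 1, Rrm1, was higher, 2.22% against 7.65%. The median log2 difference was -0.44, against 0.01 over all genes. Groups did not overlap in 1 gene, lower in knockout (2.22%), against 1.23% of all genes with a mean of 10 or more, and in 0 genes higher in knockout, against 0.981%.

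That gene was Tyms, the enzyme that makes thymidylate for DNA synthesis, named here after its values were seen. It had 65, 61, 50, 46 and 45 normalized counts in controls and 38, 38, 37, 29 and 41 in knockout samples. Its log2 difference was -0.53 (SE 0.19, limma adjusted p 0.305). D489V samples held 42, 38, 82, 35 and 39, of which 4 lay below all controls and D489V 3 above all.

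The direction in knockout rested in part on knockout 1. It held 44 normalized counts of Mki67, 22 of Ccna2, 13 of Cenpf, 3 of Cenpe and 2 of Ect2, where the other 4 knockout samples held at least 154, 57, 56, 27 and 20. Without it, 36 of the 45 genes were lower and the median log2 difference was -0.19. Without control 5, 36 were lower and the median was -0.29. Leaving out knockout 1 and the Xist-positive knockout 3 together, an alternative chosen after seeing the data, left 34 genes lower and a median of -0.16.

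Knockout was also set directly against D489V, a comparison without any control sample. These groups came in separate tables, but the control columns of both tables were identical and the median log2 ratio of the samples to the gene means lay between -0.0071 and 0.0133, so the values were on 1 scale. Over the 15299 genes tested, 10.5% were higher and 10.3% lower in knockout at an adjusted p under 0.05, so calls were common throughout the table. Of the 45 genes, 7 were higher in knockout by limma (15.6%), a share near the background, and 0 were lower. At an unadjusted p under 0.05, 18 were higher (40.0%), against 19.4% of all genes, and 0 lower, against 18.3%. Groups did not overlap in 4 genes, Mcm2, Rrm1, Bub1b and Tpx2, all higher in knockout (8.89%), against 7.19% of all genes with a mean of 10 or more, and in 0 genes lower in knockout, against 6.65%. The direction was less evenly divided, since 40 of the 45 had a higher mean in knockout, against 51.3% of such genes, and the median log2 difference was 0.62 against 0.00.

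Rrm1 differed most clearly (ENSMUSG00000030978, chromosome 7, 102441695 to 102469771, plus strand). Knockout samples held 1138, 1114, 1081, 986 and 1059 normalized counts, all above the D489V maximum of 856, with means of 1076 ± 58.5 and 738 ± 106 (SD, n = 5) and a log2 difference of 0.55 (SE 0.10, limma adjusted p 0.00624). Controls, at 650 to 1077, overlapped both groups. Mcm2 (ENSMUSG00000002870, chromosome 6, 88883474 to 88898780, minus strand) held 255, 227, 320, 244 and 174 in knockout samples, all above the D489V maximum of 165 (log2 difference 0.75, SE 0.17, limma adjusted p 0.0147). Mcm5 (ENSMUSG00000005410, chromosome 8, 75109569 to 75128439, plus strand) held 52, 120, 120, 167 and 121 (log2 difference 1.16, SE 0.31, limma adjusted p 0.0235). Only knockout 1 among these 5 lay within the D489V range of Mcm5.

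The other 4 called genes act in mitosis. Top2a (ENSMUSG00000020914, chromosome 11, 98992943 to 99024189, minus strand) held 59, 182, 143, 150 and 126 in knockout samples, and its log2 difference was 1.45 (SE 0.37, limma adjusted p 0.0196). Melk (ENSMUSG00000035683, chromosome 4, 44300876 to 44364675, plus strand) held 10, 34, 25, 22 and 17 against 4, 2, 11, 8 and 6, a log2 difference of 1.70 (SE 0.44, limma adjusted p 0.0204). Of the 45 genes, 5 reached 10 in all knockout but not in all D489V samples, and Melk, which did so in 1 D489V sample, and Bub1b were among them, so their entry into this test depended in part on the knockout samples. For both Top2a and Melk knockout 1 was the lowest of its group and the one sample that reached into the D489V range. Bub1b (ENSMUSG00000040084, chromosome 2, 118598211 to 118641591, plus strand) held 33, 43, 31, 59 and 71, all above the D489V maximum of 26 (log2 difference 1.30, SE 0.34, limma adjusted p 0.0223). Tpx2 (ENSMUSG00000027469, chromosome 2, 152847964 to 152895321, plus strand) held 160, 162, 140, 155 and 149, all above the D489V maximum of 134 (log2 difference 0.55, SE 0.15, limma adjusted p 0.0297). The narrow range of Tpx2 in knockout, a standard deviation of 8.93 on a mean of 153, included knockout 1.

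The number of calls against D489V depended on the knockout libraries. Without knockout 1, 22 genes were higher in knockout at the adjusted threshold, against 7.53% of all genes in that fit, 20 had groups that did not overlap, against 8.66%, and the median log2 difference was 0.80. Mki67 was then 1.21 higher on the log2 scale (limma adjusted p 0.0116) and Ccna2 1.14 higher (limma adjusted p 0.0146), where with all samples they were 0.78 and 0.81 higher (limma adjusted p 0.189 and 0.113). Without knockout 3 to 5, which held the most B cell marker RNA, only knockout 1 and 2 remained, 1 gene, Aurka, was called, against 1.29% of all genes called higher, and the median was 0.33.

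Further genes of the cell cycle were taken from 4 lists of 118 genes in all. In D489V against control, 89 of 109 tested were lower and 0 passed the adjusted threshold by limma, while 43 were lower and 4 higher at an unadjusted p under 0.05 (39.4% and 3.67%, against 4.06% and 5.37% of all genes tested). Other genes of G2 and mitosis were lower in 38 of 39, with a median log2 difference of -0.88, and other S phase genes in 33 of 35, with a median of -0.39. The genes of transcription and G1 control were lower in 14 of 23, with a median of -0.04. Foxm1, the transcription factor of the mitotic genes, chosen here after its values were seen, held 50, 44, 42, 72 and 76 normalized counts in controls and 16, 34, 40, 17 and 27 in D489V samples, with no overlap (log2 difference -1.10, SE 0.30, limma adjusted p 0.236).

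Cell cycle inhibitors were divided, with 8 of 12 higher in D489V than in control and a median log2 difference of 0.21. At an unadjusted p under 0.05, 4 were higher (33.3%, against 5.37% of all genes tested) and 2 lower (16.7%, against 4.06%). Groups did not overlap in 1 of each (8.33%, against 1.1% higher and 1.06% lower). These were Cdkn1a, higher, and Cdkn2b, lower, named here after their values were seen. Cdkn2b, which encodes p15, had 52, 48, 56, 47 and 56 in controls and 40, 45, 36, 36 and 39 in D489V samples (log2 difference -0.39, limma adjusted p 0.442). Cdkn1a encodes p21, an inhibitor of cyclin-dependent kinases. Its values were 612, 660, 1364, 1021 and 693 in controls and 2881, 1455, 1564, 1551 and 3078 in D489V samples, all above all controls (2.40-fold on the log2(value + 1) scale, limma adjusted p 0.114). Against D489V, knockout samples were lower for 5 of 12 inhibitors at the adjusted threshold, where 10.3% of all genes were. These were Cdkn1a (log2 difference -0.96, limma adjusted p 0.0188), Cdkn2c (-0.61, 0.0132), Btg2 (-0.58, 0.0423), Gadd45b (-0.68, 0.0329) and Gadd45g (-1.03, 0.00516).

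The same direct comparison called 4 of 23 genes of G1 control lower in knockout (17.4%, against 10.3% of all genes). These were Ccnd2 (cyclin D2, log2 difference -0.62, limma adjusted p 0.00392), Cdk2 (-0.63, 0.00742), Cdk6 (-0.72, 0.0117) and Myc (-0.78, 0.0238). E2f6 (0.61, 0.0279) was the 1 called higher (4.35%, against 10.5%). Of the other S phase genes, 3 of 35 were called higher in knockout (8.57%, against 10.5%), among them Dtl (1.30, 0.0200) and Clspn (1.33, 0.0312). Of the other G2 and mitosis genes, 6 of 38 were called higher (15.8%, against 10.5%) and 1 lower. Among those 6, Kifc1 (0.87, 0.0154), Cep55 (1.65, 0.0291), Cdca2 (0.92, 0.0303) and Ckap5 (0.41, 0.0328) had the smallest p. Pttg1, which encodes securin, the inhibitor of separase, was the one gene of the 114 tested that passed the adjusted threshold in knockout against control, and it fell from 538 to 1294 normalized counts in controls to 43 to 102 (log2 difference -3.61, limma adjusted p 5.95e-04). D489V samples held 564 to 1210, and Espl1, the separase that securin holds, had overlapping groups in all 3 comparisons.

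Markers of other cell types moved along with some of these differences. Erythroid markers summed to 5690 to 8427 in controls and 3179 to 8043 in knockout, but to 12475 to 22186 in D489V samples. Of 9 matched erythroid markers, 6 were tested in D489V against control. All 6 were higher at an unadjusted p under 0.05, against 5.37% of all genes tested, and 0 passed the adjusted threshold by limma. Klf1, a transcription factor of immature red cells, was near 0 in every sample, at 9 or fewer. Adipocyte markers summed to 7083 to 65563, 11540 to 19929 and 29505 to 95944, and Schwann cell markers to 7987 to 12925, 5672 to 8894 and 11310 to 45766, where D489V 3 alone held 45766 and the other D489V samples at most 13799. Endothelial markers summed to 13476 to 19407 in controls and 15124 to 17782 in D489V, but to 7902 to 12649 in knockout. All 7 were lower in knockout than in control at an unadjusted p under 0.05, against 7.42% of all genes tested. Fibro-adipogenic markers summed to 95385 to 124176 in controls and to 64805, 69593, 90313, 98707 and 88096 in D489V samples, 4 of them below every control. In knockout they summed to 95097 to 143077 apart from knockout 3, at 35543. Col1a1 and Col3a1 had the highest means of this list, 51567 and 34951. Taken gene by gene in D489V against control, 3 of the 7 markers were lower and 4 higher, with a median log2 difference of 0.02. In knockout against D489V, limma called lower in knockout 7 of 7 endothelial and 5 of 5 erythroid markers tested, against 10.3% of all genes. So were 5 of 6 adipocyte and 6 of 6 Schwann cell markers. Of 7 fibro-adipogenic markers 0 were called, and 2 (28.6%) were lower at an unadjusted p under 0.05, against 18.3% of all genes. The part of these cell types in the differences of the proliferation genes was not tested.

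Lymphocytes can divide and can carry such RNA into a muscle sample. B cell markers summed to 32 to 5679 in controls, 23 to 5504 in knockout and 107 to 284 in D489V, and T cell markers to 20 to 1193, 16 to 883 and 21 to 73. Control 5 held the highest sums of both lists. Their part in the differences was not tested beyond the values without control 5 given with the D489V comparison. Lymph node venule markers, counting 1 of the 2 identifiers that carry the name Ccl21a, summed to 0 to 332 in controls, 0 to 541 in knockout and 8 to 38 in D489V. Satellite cell and myoblast markers summed to 3498 to 4266 in controls, 4046 to 4689 in knockout and 3433 to 3868 in D489V. Every knockout sum was above every D489V sum, but Myf6 had by far the highest mean of these markers, 2421, against 155 for Pax7. In knockout against D489V, 4 of the 8 markers were lower and 4 higher, with a median log2 difference of 0.06. At the adjusted threshold limma called 1 higher (12.5%, against 10.5% of all genes). Macrophage markers overlapped, at 2092 to 4573, 1851 to 4447 and 2192 to 3599. Granulocyte and marrow precursor markers summed to 896 and 1022 in D489V 4 and 5, but to 81, 146 and 43 in D489V 1 to 3. Controls held 41 to 207 and knockout samples 18 to 100.

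**Figure D4:**
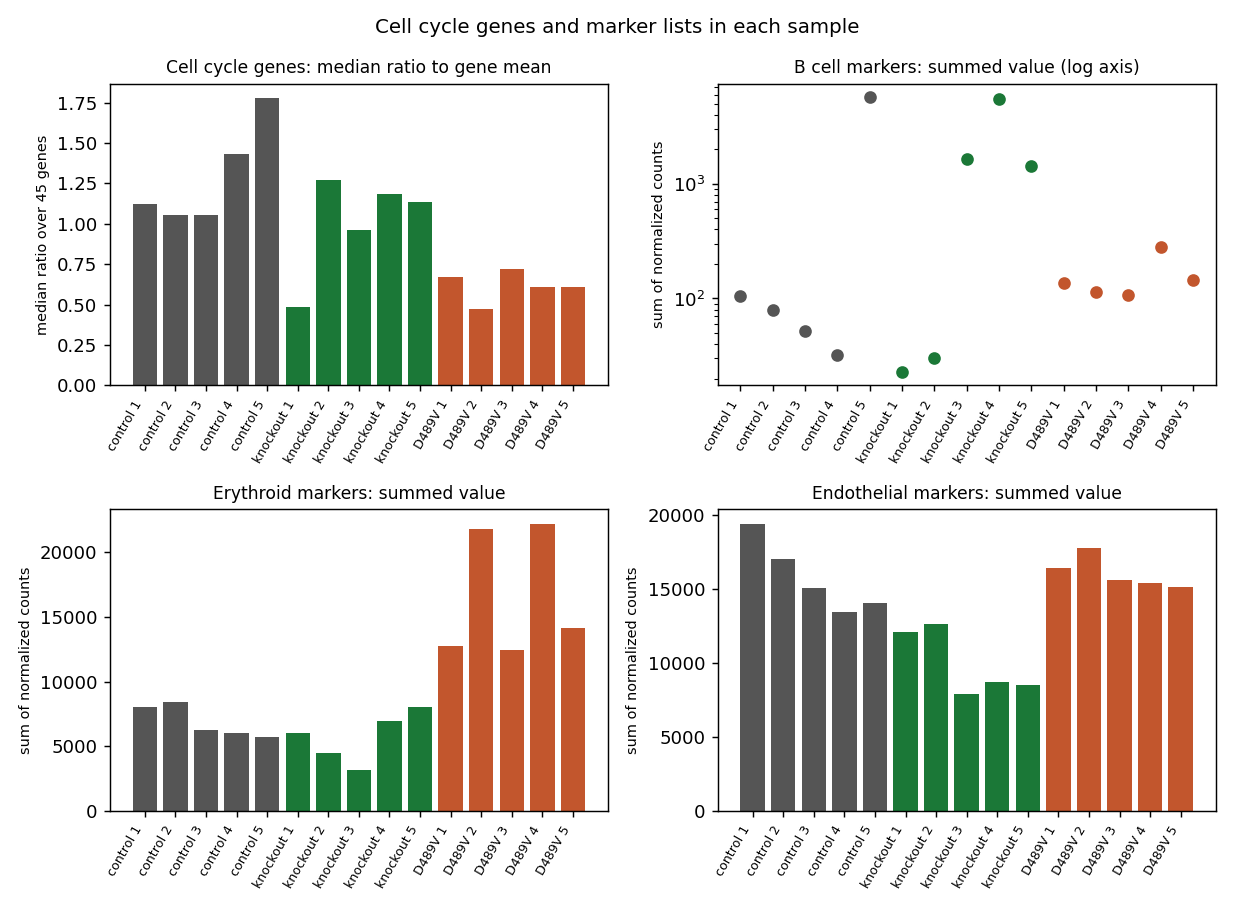
The first panel gives, for each of the 15 samples, the median over the 45 genes of the ratio to the gene's mean, and the others the summed normalized counts of the B cell (log axis), erythroid and endothelial markers. D489V samples are at 0.470 to 0.718 in the first panel and control 5 is at 1.78. The B cell sum is highest in control 5 (5679) and lowest in knockout 1 (23), knockout 2 (30) and control 4 (32), whose ratios are 0.486, 1.27 and 1.43. The relation of the B cell sum to the ratio was not tested.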

How the data were processed

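Poly(A) RNA of skeletal muscle was sequenced from 15 mouse samples, 5 per group, using a directional kit, per the labels' protocols. Deposited values, treated here as a score, are whole numbers that the authors call normalized counts in naming their tables. The submitters' processing notes name Trim Galore 0.6.0, cutadapt, FastQC, STAR 2.7.0e, DESeq2 1.26.0 and GRCm38. The counting tool, its strand setting and the gene annotation are not given in the sources used here, and tests on read counts were not run, since depth per sample was scaled away and precision is given by the spread of 5 samples.

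Both deposited tables were joined by gene identifier. The moderated two-sided test of limma 3.58.1 (R 4.3.3, variance trend) was run for each comparison on log2(value + 1) of every gene that reached 10 in 5 or more of its 10 samples, with Benjamini-Hochberg adjustment over all of them and a threshold of 0.05. The fit was tested on simulated data. Differences are on the log2(value + 1) scale, which understates those of low genes. The genes and lists were chosen with earlier results of these data known, so no p was adjusted over a list alone. Sample by sample values are given for called genes and for the gene of each role group with the highest mean value. Of the other cell cycle lists, called genes are named by adjusted p, at most 5 per list and comparison, except for some that are not reported here. Coordinates and exon lengths come from GENCODE M21 (GRCm38) and promoters from RefSeq (GRCm38.p6). Alternatives changed the pseudocount, filter, scaling, variance model, sample weights, samples in the fit and replicate block, and left out samples. Plots were drawn with matplotlib 3.10.9 and tables made with pandas 2.3.3 (Python 3.11.15, numpy 2.4.6).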

Additional observations from a re-analysis of the deposited data

Results flagged for a closer look

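In groups of 5 samples, a value was taken as far from its group where its gap to the nearest other sample exceeded 0.71 of the group's range. For genes, gap and range were taken on the log2(value + 1) scale, while the values below are normalized counts. Of 138 groups of values tested, 10 held such a value, against 6.9 by chance at 1 in 20.

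Knockout 1 was far below its group in 4 genes. It held 44 normalized counts of Mki67 against 154 to 246 in the other knockout samples, 13 of Cenpf against 56 to 74, 3 of Cenpe against 27 to 41, and 52 of Mcm5 against 120 to 167. Control 5 was far above its group in Mcm6, at 321 against 175 to 208, and in Cenpe, at 70 against 33 to 41. D489V 3 was far above in Tyms, at 82 against 35 to 42, and in Cdc20, at 50 against 21 to 26. D489V 2 was far below in Kif20a, at 12 against 34 to 48, and in Esco2, at 0 against 9 to 11.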

How the results depend on the processing

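In D489V against control, the 3 genes lower at the adjusted threshold became 5 with pseudocount 5, 5 with robust eBayes, 6 with quantile normalization and 15 with array weights. Of all genes, 0.0587%, 0.0652%, 0.0587% and 0.235% were then lower, against 0.0326% in the main fit. They became 0 with a mean of 50 or more, 0 with all 15 samples in one fit and 0 with control 5 left out as a library rich in lymphocyte RNA. Of all genes, 0.0082%, 0.00652% and 0.00658% were then lower. Without 1 replicate they became 0 to 10, the 10 without D489V 3, where 0.0922% of all genes were lower. The cause was not tested. Over the alternatives, limma adjusted p ran from 0.0233 to 0.136 for Mki67, from 0.0122 to 0.128 for Ccna2 and from 0.0169 to 0.128 for Ckap2. In knockout against D489V, the 7 genes higher became 12 with quantile normalization (9.55% of all genes called higher), 16 with array weights (14.9%) and 1 with knockout 3 to 5 left out (1.29%). They became 19 without knockout 1 and 3 (3.23%, chosen after seeing the data), and 4 to 22 without 1 replicate, the 22 without knockout 1 (7.53%). In the main fit 10.5% of all genes were called higher. No gene of the list was called in knockout against control, higher in D489V than in control, or lower in knockout than in D489V under any alternative run.

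With the replicate number as a block, 0 genes were called in D489V against control. In knockout against D489V 7 were called higher, where 6.7% of all genes were. Correlations of same-numbered samples' deviations ran from -0.41 to 0.38, from -0.20 to 0.21 and from -0.10 to 0.10 in the 3 comparisons. Samples with different numbers were not correlated, so these values cannot say whether the numbers pair the samples.

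Of the single-gene values in D489V against control, 965 stayed on their side of the threshold, 27 passed it, 37 lost it and 7 uncalled ones changed sign. All 37 losses were of Mki67, Ccna2 and Ckap2, the only genes called in the main fit, while most of the 965 were of genes never called there. The 37 are therefore not a share of the 965. The fit without control 5 entered these counts under 2 settings. Low values limit Ttk, Bub1, Melk, Ncapg, Kif2c and Esco2 most, where rounding to whole counts is coarse.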
